A study of Mus musculus with 18 samples.

Results

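The 6 genes described here, *Blnk*, *Nox4*, *Crtac1*, *Sdc1*, *Rnase4* and *Timeless*, were chosen by their log2 difference between Nav1.7 KO and littermate arrays. Apart from the enkephalin precursor gene *Penk*, they had some of the largest increases among the 18193 genes on the array. They are covered by 14 of the 34945 probe sets named for 1 gene. Gene expression was measured in whole dorsal root ganglia (DRG), the clusters of sensory neurons beside the spinal cord, taken from all spinal levels of adult mice of both sexes and hybridised to Affymetrix mouse genome arrays. The 18 arrays form 6 groups of 3, KO and littermate mice of a Nav1.7, a Nav1.8 and a Nav1.9 line. In the Nav1.7 line *Scn9a* was floxed and removed by Advillin-Cre, which is active in sensory neurons, so other cells of the ganglion keep the gene. The Nav1.8 (*Scn10a*) and Nav1.9 (*Scn11a*) lines are global nulls. Littermates of each line are labelled wild type. Whether this leaves out floxed alleles or Cre in the Nav1.7 line is not spelled out in the sources used here, and the strain of the 3 lines is not given there. The Nav1.7 arrays are described as 3 KO mice and 3 wild-type littermates. The methods also speak of triplicates and no label ties an array to a mouse, so the p-values measure the spread between arrays, part of which may be technical.

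The 6 genes are known from different pathways. Blnk (BLNK, SLP-65) is an adaptor that couples the Syk kinase to downstream signalling in B cells and macrophages. Nox4 is an NADPH oxidase that makes hydrogen peroxide. Crtac1 (cartilage acidic protein 1, LOTUS) is a secreted and membrane-bound protein of cartilage and neurons that blocks the Nogo receptor. Sdc1 is syndecan-1, a cell surface heparan sulphate proteoglycan used as a plasma cell marker. Rnase4 is a secreted ribonuclease of the RNase A family, and Timeless acts with Tipin to protect replication forks and is related to an insect circadian clock protein.

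In the series as a whole, array medians lay between 6.33 and 6.36 on the log2 scale and replicates correlated at 0.996 to 0.998. The KO arrays of the Nav1.8 line had 2.98-fold less *Scn10a* than their littermates (limma, adjusted p = 5.4e-05). Those of the Nav1.9 line had 3.62-fold less *Scn11a* (adjusted p = 7.13e-07). The 5 *Scn9a* probe sets lay 0.05 to 0.36 lower (log2) in Nav1.7 KO and 0 passed an adjusted p of 0.05 (2 at an unadjusted p under 0.05). Whether they lie in the deleted part is not given in the sources used here, so *Scn9a* does not check the Nav1.7 labels. *Avil*, the gene that Advillin-Cre is named for, was 1.56-fold lower in the Nav1.7 KO arrays (adjusted p = 8.03e-08). *Xist*, the RNA of the inactive X chromosome, was high in all 3 Nav1.7 littermate arrays and in KO arrays 1 and 3, and low in Nav1.7 KO array 2. The 3 Nav1.8 littermate and all 6 Nav1.9 line arrays were *Xist*-low, as was Nav1.8 KO array 1. Nav1.7 KO array 2 therefore differs from its littermates in *Xist* class as well as genotype. Of the marker lists, neutrophil genes differed most in median (a list added after the values were seen), with 0 of 9 past the test and 3 of 9 at an unadjusted p under 0.05. Their summed linear level was 4741 to 4885 in Nav1.7 littermates and 7471 to 11902 in Nav1.7 KO arrays, and 3172 to 22670 in the other lines. Macrophage markers went the same way, at 3535 to 4245 in Nav1.7 littermates and 4625 to 6141 in KO arrays, with 1 of 16 genes past the test and 10 of 16 at an unadjusted p under 0.05. In the 12 arrays of the other lines the macrophage sum was 4946 to 8238. The share of all genes at an unadjusted p under 0.05 in Nav1.7 KO is not given here. The unadjusted Nav1.7 counts, here and below, therefore cannot be set against it, and nothing is read from them. In whole ganglia, more cells of a type and more RNA per cell cannot be told apart.

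The promoter sequence is shown for 3 of the 6 genes. *Rnase4* is shown because its annotated start is shared with *Ang* (angiogenin), a ribonuclease of the same family that is described beside it. *Crtac1* is shown because its window holds the only motif match found, and *Blnk* because its increase was the largest. Sequences are from RefSeq on GRCm38.p6, 250 bases before the start and 50 after it, read 5′ to 3′ on the gene's strand. In the *Rnase4* and *Blnk* windows capitals mark the 50 bases from the annotated start on. In the *Crtac1* window they mark TATAAA, which begins at base 5 counted from the annotated start on, so it lies after the start. The first *Rnase4* window is at chr14:51090827-51091126 on the plus strand and is the same as that of *Ang*. The second is at chr14:51095750-51096049 on the plus strand. *Blnk* is at chr19:40994172-40994471 and *Crtac1* at chr19:42431739-42432038, both on the minus strand.
Rnase4 and Ang, shared start: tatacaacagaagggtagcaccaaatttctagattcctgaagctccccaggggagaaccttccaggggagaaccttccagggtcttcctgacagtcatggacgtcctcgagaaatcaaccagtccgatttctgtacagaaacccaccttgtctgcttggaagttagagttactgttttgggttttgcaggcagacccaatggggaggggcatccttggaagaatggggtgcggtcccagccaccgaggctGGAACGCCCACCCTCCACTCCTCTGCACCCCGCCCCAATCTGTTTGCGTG
Rnase4, downstream start: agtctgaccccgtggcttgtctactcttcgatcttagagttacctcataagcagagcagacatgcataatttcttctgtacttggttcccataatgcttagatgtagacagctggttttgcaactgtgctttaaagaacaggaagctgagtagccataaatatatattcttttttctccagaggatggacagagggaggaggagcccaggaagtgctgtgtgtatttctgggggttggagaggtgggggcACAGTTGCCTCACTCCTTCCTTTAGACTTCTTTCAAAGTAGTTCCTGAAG
Blnk: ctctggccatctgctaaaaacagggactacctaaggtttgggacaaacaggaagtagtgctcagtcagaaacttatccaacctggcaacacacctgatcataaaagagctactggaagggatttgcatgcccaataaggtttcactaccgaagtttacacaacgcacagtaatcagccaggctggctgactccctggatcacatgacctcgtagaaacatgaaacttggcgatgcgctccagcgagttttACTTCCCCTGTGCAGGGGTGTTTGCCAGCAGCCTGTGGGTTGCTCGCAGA
Crtac1: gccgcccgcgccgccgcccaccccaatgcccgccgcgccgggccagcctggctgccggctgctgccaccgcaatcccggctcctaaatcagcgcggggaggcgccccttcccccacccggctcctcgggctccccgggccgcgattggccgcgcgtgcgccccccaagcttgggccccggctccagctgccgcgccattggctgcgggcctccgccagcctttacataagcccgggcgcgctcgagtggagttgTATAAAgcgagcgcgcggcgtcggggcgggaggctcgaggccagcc

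RefSeq gives 8 windows for the 6 genes. None held the NFAT5 core TGGAAA on either strand, which 21.4% of the 32851 mouse promoter windows hold. None held the E-box CACGTG (7.15% of all windows), the CRE TGACGTCA (1.79%) or the AP-1 site TGACTCA (5.20%). TATAAA (13.6%) was found in 1 window, of *Crtac1*, where it lies after the annotated start. The windows also differed in CpG content. The *Crtac1* windows held 41 and 31 CpG, *Nox4* 24, *Sdc1* 14, *Blnk* 7, *Timeless* 5 and *Rnase4* 8 and 2, against a median of 7 over all windows. A missing match says only that these letters are not in the window.

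The values that chose the genes are the Nav1.7 KO and littermate arrays, which are given as a description with no test. All 6 genes had higher values in all 3 KO arrays than in any of their littermates, as did 10.8% of all genes. By difference of means they ranked 3, 15, 22, 23, 25 and 30. Among genes that passed the test and did not overlap they ranked 2 to 6 and 10, after *Penk*. These ranks only describe how the genes were chosen. *Unc5d*, *Sting1* and *Osmr*, at ranks 7 to 9 by the same measure, were not picked although they stood at 1.8-fold each. *Rnase4*, the last of the 6, was 1.78-fold higher. *Eif2s3y* and *Kdm5d*, both on the Y chromosome, and the platelet gene *Ppbp* had larger differences than at least 5 of the 6 but overlapping arrays. *Nt5dc1* (2.27-fold) passed the test and overlapped. *Crh* (2.13-fold), *Lcn2* (2.13-fold), *Camp* (2.04-fold) and *Ifitm6* (1.99-fold) did not overlap and did not pass the test.

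*Blnk* had the largest increase of the 6. Its log2 intensity was 6.47, 6.2 and 6.39 in the Nav1.7 littermates and 7.60, 8.57 and 7.63 in the KO arrays, a 2.98-fold difference of means. The group means were 6.36 ± 0.14 and 7.93 ± 0.55 (SD, n = 3 arrays each). KO array 2, the *Xist*-low one, was 0.94 above the next highest. In the *Xist*-high arrays alone, which leave it out, the difference was 2.39-fold, and that of the other 5 genes 1.74- to 2.09-fold. In the other lines *Blnk* was 6.86, 7.0 and 6.58 in Nav1.8 littermates and 6.67, 6.76 and 6.77 in their KO counterparts. It was 6.67, 6.75 and 6.90 in Nav1.9 littermates and 6.53, 6.66 and 6.38 in Nav1.9 KO. Nav1.7 KO stood above all 15 other arrays, and Nav1.7 littermates were the lowest group.

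*Nox4* was dim, with its probe set at a mean of 5.92 over the 18 arrays, below the array medians of 6.33 to 6.36. Its log2 intensity was 5.87, 5.58 and 5.44 in Nav1.7 littermates and 6.67, 6.44 and 6.71 in Nav1.7 KO, a 1.97-fold difference. In Nav1.8 it was 5.75, 5.92 and 5.51 in littermates and 5.70, 5.73 and 5.65 in KO. In Nav1.9 it was 5.84, 5.70 and 6.34 in littermates and 5.99, 6.00 and 5.78 in KO. The highest of the other arrays, Nav1.9 littermate 3, was 0.10 below the lowest Nav1.7 KO array. No detection calls were used, so how far these values lie above background is not known.

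*Crtac1* was 7.97, 7.91 and 8.35 in Nav1.7 littermates and 8.90, 9.16 and 8.93 in Nav1.7 KO, a 1.89-fold difference. It was 8.24, 8.23 and 8.19 in Nav1.8 littermates and 8.19, 7.98 and 7.78 in Nav1.8 KO. In Nav1.9 it was 8.56, 8.32 and 8.51 in littermates and 8.42, 8.46 and 8.38 in KO. Nav1.7 KO arrays were above all other arrays.

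*Sdc1* was 8.58, 8.74 and 8.54 in Nav1.7 littermates and 9.47, 9.32 and 9.68 in Nav1.7 KO, a 1.83-fold difference. It was 8.86, 8.78 and 8.90 in Nav1.8 littermates and 8.63, 8.75 and 8.63 in Nav1.8 KO. It was 9.47, 8.99 and 9.11 in Nav1.9 littermates and 8.98, 9.0 and 8.99 in Nav1.9 KO. Nav1.9 littermate 1 reached the level of the Nav1.7 KO arrays.

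*Rnase4* was 9.71, 9.57 and 9.23 in Nav1.7 littermates and 10.19, 10.40 and 10.42 in Nav1.7 KO, a 1.78-fold difference. It was 9.76, 9.87 and 9.89 in Nav1.8 littermates and 9.87, 10.08 and 10.05 in Nav1.8 KO. It was 10.09, 10.08 and 10.002 in Nav1.9 littermates and 10.03, 9.97 and 9.999 in Nav1.9 KO. *Rnase4* was the only one of the 6 whose Nav1.7 littermates were below all 12 arrays of the other lines, as held for 6.76% of genes, an order that the choice of the genes favours.

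*Timeless* was 9.57, 9.84 and 9.64 in Nav1.7 littermates and 10.40, 10.63 and 10.80 in Nav1.7 KO, a 1.9-fold difference. It was 9.96, 9.88 and 9.84 in Nav1.8 littermates and 9.78, 9.55 and 9.58 in Nav1.8 KO. It was 10.16, 10.11 and 10.41 in Nav1.9 littermates and 9.92, 10.02 and 9.99 in Nav1.9 KO. Nav1.9 littermate 3 was level with the lowest Nav1.7 KO array.

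**Figure D1:**
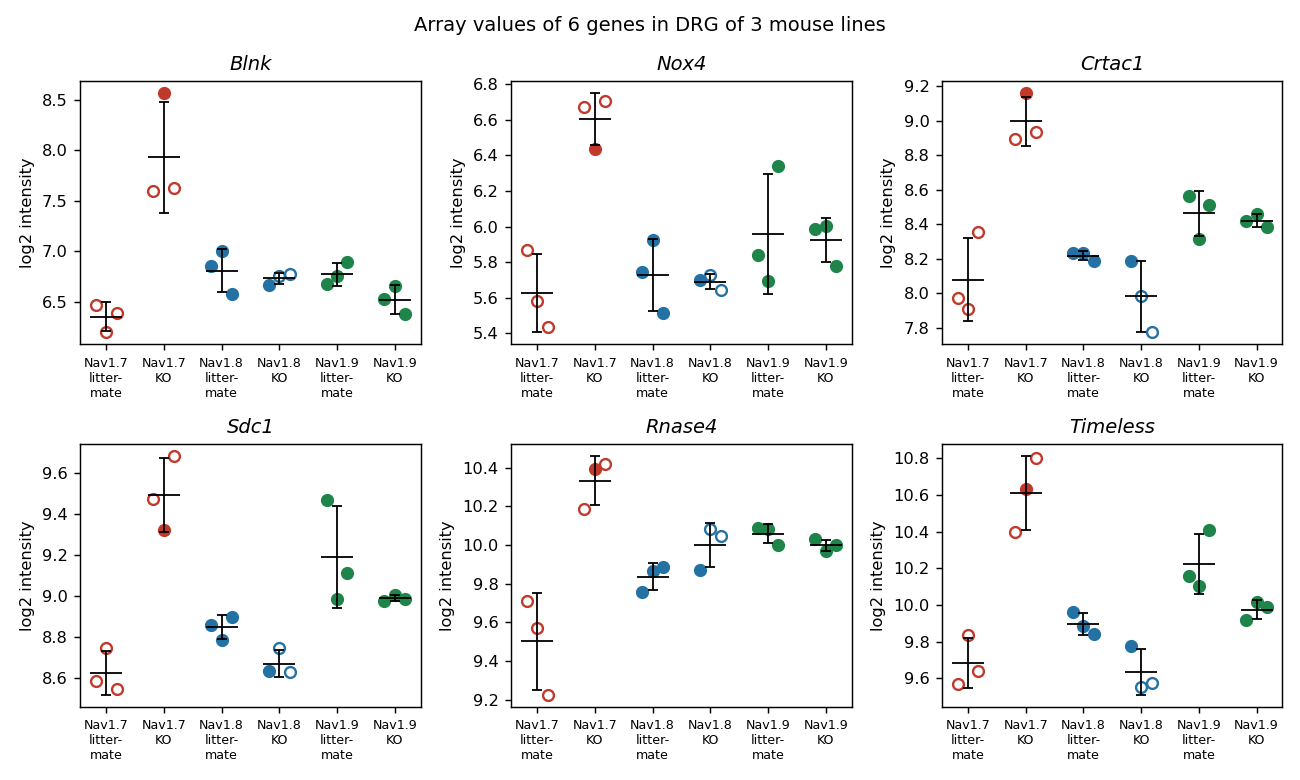
Log2 intensity of the 6 genes (1 panel each, vertical axes differ) in each of the 18 arrays by group; open points are *Xist*-high and filled points *Xist*-low arrays, bars are the mean and SD. Nav1.7 KO arrays lie above their littermates in every panel, and in *Sdc1* and *Timeless* 1 Nav1.9 littermate reaches them.

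The Nav1.7 littermates are part of the difference that chose the genes, and the choice favours genes that are low there, so their place among the lines is a description only. The Nav1.7 littermates were lower than the mean of the 6 littermates of the other lines for all 6 genes, by 0.22 (*Nox4*) to 0.44 (*Rnase4*) on the log2 scale. Over all 18193 genes this was the direction for 57.2%, with a median of -0.02, and nothing is read from the comparison. Set against the 6 littermates of the other lines in place of their own, Nav1.7 KO arrays were higher by 2.20-fold for *Blnk*, 1.7-fold for *Nox4*, 1.58-fold for *Crtac1*, 1.46-fold for *Timeless*, 1.39-fold for *Sdc1* and 1.31-fold for *Rnase4*. Whether the lines were hybridised together is not given in the sources used here, so line and any such batch cannot be told apart. *Blnk*, *Nox4*, *Crtac1* and *Rnase4* were above all 15 other arrays in all 3 Nav1.7 KO arrays, which held for 1.46% of genes and is likewise favoured by the choice. *Sdc1* and *Timeless* each overlapped with 1 array.

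The other lines give differences that the choice did not use, though their tests share an estimate of spread with the Nav1.7 arrays. For *Blnk* the SD was 0.55 in Nav1.7 KO and 0.06 in Nav1.8 KO, and the standard error was 0.19 in each line. In Nav1.8 KO 0 of the 6 genes passed an adjusted p of 0.05, against 0.0165% of all genes (3 genes). *Timeless* alone reached an unadjusted p under 0.05, as did 8.09% of all genes, at 1.20-fold lower (limma, adjusted p = 0.547). The highest upper limit of the 95% intervals was 0.37 (log2) for *Rnase4*, and 5 of the 6 genes were lower in the KO, as were 57.2% of all genes. *Crtac1*, *Sdc1* and *Timeless* had KO arrays all below their littermates, which held for 9.02% of genes. None of the 6 genes had all KO arrays above the littermates. All 3 Nav1.8 littermates were *Xist*-low and 2 KO arrays *Xist*-high, so *Xist* class and genotype are confounded in part. *Crtac1* was 8.19 in the *Xist*-low KO array and 7.78 to 7.98 in the *Xist*-high ones. *Timeless* was 9.78 against 9.55 to 9.58, and *Sdc1* 8.63 against 8.63 to 8.75. The part of *Xist* class was not tested.

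In Nav1.9 KO 0 of the 6 genes passed, against 0.473% of all genes (86 genes). All 6 were lower, as were 48.8% of all genes, and *Timeless* alone reached an unadjusted p under 0.05, as did 12.1% of all genes, at 1.19-fold lower (adjusted p = 0.331). The upper limit was highest for *Nox4*, at 0.28. *Blnk* and *Timeless* arrays did not overlap, against 9.29% of genes. The upper limits bound the rises that the intervals allow with 3 arrays a group, and are not limits of detection. For *Timeless* they were below 0 in both lines, at -0.046 in Nav1.8 and -0.035 in Nav1.9. The Nav1.8 effect minus the Nav1.9 effect passed for 0 of the 6 (0.0385% of all genes) and reached an unadjusted p under 0.05 for 0.

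**Figure D2:**
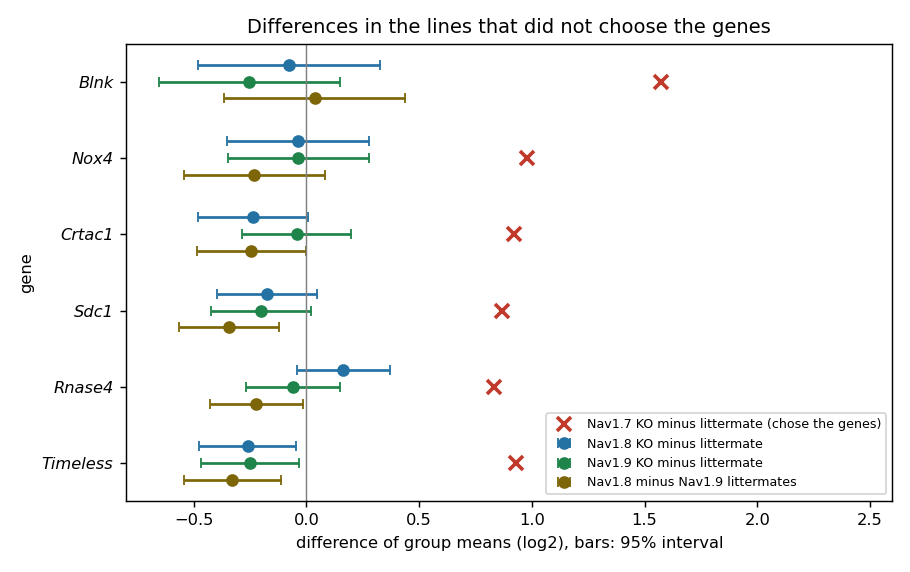
Differences between group means (log2) with 95% intervals in the lines that did not choose the genes; crosses give the Nav1.7 difference. The Nav1.8 and Nav1.9 KO intervals end at 0.37 or below, against Nav1.7 differences of 0.83 to 1.57.

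Littermates of the Nav1.8 and Nav1.9 lines also differed. *Sdc1* was 1.27-fold and *Timeless* 1.26-fold lower in Nav1.8 than in Nav1.9 littermates (limma, adjusted p = 0.0409 and 0.0443). That is 2 of 6, against 12.8% of all genes in either direction and 5.3% in this one. Both values are from the probe set used for the gene. The other *Sdc1* probe sets differed by -0.14, 0.03 and -0.22 (log2) and *Timeless* 1417587_at by 0.27, and none of them passed. *Crtac1* and *Rnase4* were 1.18- and 1.17-fold lower and did not pass (adjusted p = 0.177 and 0.153). The calls were lost without most single arrays: without Nav1.8 littermate 1, 2 or 3 or Nav1.9 littermate 1 or 3 the count was 0. The differences kept their sign, at -0.45 to -0.20 for *Sdc1* and -0.39 to -0.24 for *Timeless* (log2).

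Several of the genes have more than 1 probe set. In Nav1.7 KO 13 of the 14 were higher and 12 did not overlap with littermates. The exceptions were the dim *Timeless* 1417587_at (mean 5.21, 0.10 lower), which is annotated to the same source sequence as the bright 1417586_at, and *Crtac1* 1459147_at (0.23 higher, overlapping). *Sdc1* was higher by 0.85 and 0.87 at 1415943_at and 1437279_x_at and by 0.39 and 0.31 at 1415944_at and 1448158_at. Over all probe sets 8.29% were higher without overlap. In the Nav1.8 line 0 of the 14 passed (0.00666% of all probe sets), with 4 at an unadjusted p under 0.05 (8.16% of all probe sets). The lowest of these p values was that of *Crtac1* 1452936_at, 0.48 lower (limma, adjusted p = 0.425). In the Nav1.9 line 0 passed (0.242%), with 2 at an unadjusted p under 0.05 (10.4%). Between the littermates 3 passed, against 10.8% of all probe sets. They were the probe sets used for *Sdc1* and *Timeless*, and *Nox4* 1419161_a_at. The last was dim (mean 4.15) and 0.29 lower in Nav1.8 than in Nav1.9 littermates (limma, adjusted p = 0.0104).

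**Figure D3:**
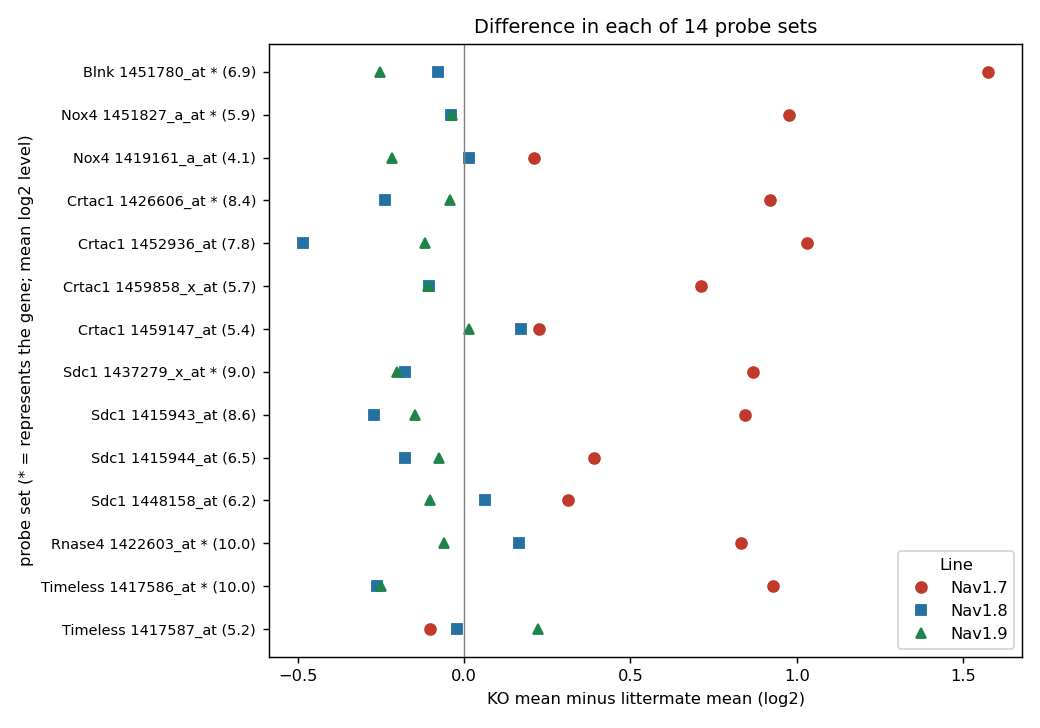
KO minus littermate (log2) for each of the 14 probe sets, by line; * marks the probe set used for the gene, and the number in brackets is the mean log2 level. Nav1.7 points lie at 0.21 or above except for *Timeless* 1417587_at.

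Among pathway partners, 3 rose and 7 fell of 167 genes measured in Nav1.7 KO, 5.99%. Of all genes 4.33% passed, 1.81% higher and 2.51% lower, and the median difference was 0.02 over the partners and 0.01 over all genes (log2). None of the 167 passed in the Nav1.8 or the Nav1.9 line. The Nav1.7 effect differed from the Nav1.8 effect for 4 of the 167 (2.15% of all genes) and from the Nav1.9 effect for 3 (2.82%). Of 22 genes of B-cell receptor and Syk signalling, 0 rose and 2 fell: *Vav3*, a guanine nucleotide exchange factor (1.9-fold lower), and *Bank1*, a B-cell scaffold (1.40-fold lower; adjusted p = 5.42e-07 and 0.0019). *Syk* was 1.08-fold higher and did not pass. The list median was 0.08 (log2), and 6 of 22 reached an unadjusted p under 0.05. *Pik3ap1*, named after its values were seen, had the largest rise of the list. It was 1.58-fold higher and did not pass (limma, adjusted p = 0.0565). The B-cell marker sum was 198 to 218 in littermates and 225 to 240 in KO arrays, with 0 of 7 markers passing and 2 of 7 at an unadjusted p under 0.05. The macrophage sum was higher in the same arrays as *Blnk*, as given above, and its part in the *Blnk* difference was not tested. That sum was above the Nav1.7 littermates in all 12 arrays of the other lines. *Blnk* was 6.38 to 7.0 there, with 1 of the 12 at or below the highest Nav1.7 littermate. Line and any batch cannot be told apart in this comparison.

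Of 12 NADPH oxidase genes, *Ncf4*, a phagocyte oxidase subunit, rose 1.53-fold (adjusted p = 0.0279) and 11 did not pass. Its Nav1.7 KO mean of 6.29 was near that of Nav1.8 littermates, 6.25. None of 19 redox genes passed (5 at an unadjusted p under 0.05). Of 15 Nogo receptor ligands and co-receptors, *Lgi1*, a secreted synaptic protein, fell 1.18-fold (adjusted p = 0.038). Of 9 syndecans and glypicans, *Gpc5* rose 1.44-fold (adjusted p = 0.0014), and of 30 heparan sulphate genes and syndecan partners, *Sdcbp* (syntenin) fell 1.18-fold (adjusted p = 0.0029).

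*Ang*, which shares its start with *Rnase4*, rose 1.33-fold (adjusted p = 0.0486, 8.04 to 8.53 in KO against 7.67 to 8.02 in littermates). This call was lost in 5 settings besides those that leave out an array. In Nav1.8 littermates *Ang* averaged 8.50, above the Nav1.7 KO mean of 8.26. None of 30 replication fork genes passed (3 unadjusted), *Tipin* included at 1.08-fold. Of 21 circadian clock genes 3 fell, *Clock* 1.18-fold (adjusted p = 0.0103), *Rora* 1.26-fold (adjusted p = 0.0343) and *Bhlhe41* 1.29-fold (adjusted p = 0.0274). Of the 10 partner genes that passed, *Vav3*, *Bank1*, *Gpc5* and *Sdcbp* passed whichever of the Nav1.7 arrays was left out. *Clock* was lost without Nav1.7 littermate 1. *Ang* and *Ncf4* were lost without littermate 2 or 3 or KO 2 or 3, *Bhlhe41* without littermate 2 or 3 or KO 1 or 3, *Rora* without littermate 1 or 3 or KO 1 or 2, and *Lgi1* without littermate 1, 2 or 3 or KO 3.

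**Figure D4:**
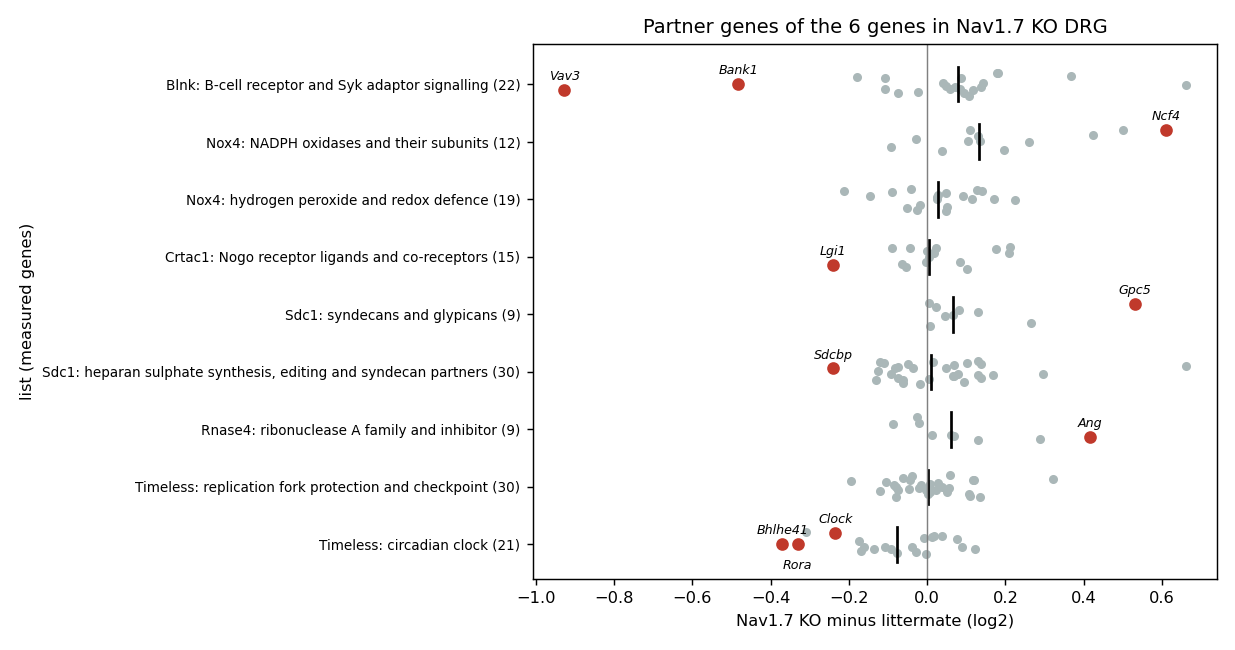
Nav1.7 KO minus littermate (log2) for the 167 partner genes by list; red points passed an adjusted p of 0.05, grey did not, black bars are list medians. 3 genes rose and 7 fell.

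Of 90 cell type markers 2 rose and 1 fell (3.33%). *Adgre1*, a macrophage marker, was 1.29-fold higher (adjusted p = 0.0285), *Fabp7*, a satellite glia marker, 1.28-fold higher (adjusted p = 0.0175), and *Avil* fell as above. Sensory neuron marker sums without *Avil* were 102468 to 103859 in littermates and 99178 to 101729 in KO arrays. *Adgre1* was lost without Nav1.7 littermate 2 or 3 or KO 2 or 3, and *Fabp7* without littermate 3 or KO 1 or 2. Neutrophil, plasma cell, B cell, T cell, Schwann cell, fibroblast, endothelial, cartilage and dividing cell markers had 0 passing. At an unadjusted p under 0.05 were 6 of 11 sensory neuron, 4 of 9 endothelial and 1 of 7 satellite glia markers. Plasma cell, T cell, Schwann cell, fibroblast, cartilage and dividing cell markers had 0. The satellite glia sum was 27756 to 30004 in littermates and 30581 to 32650 in KO arrays. For the endothelial list it was 4210 to 5460 and 3429 to 4750, with overlap.

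*Timeless* starts within 2 Mb of *Avil* on chromosome 10. Where the Advillin-Cre sequence lies in the genome is not given in the sources used here. With *Timeless* left out, since the Nav1.7 difference chose it, 5 of 139 genes within 10 Mb of *Avil* passed in Nav1.7 KO, 3.6% against 4.33% over all genes. They were *Irak3* (1.37-fold higher), *Slc16a7* (1.32-fold higher), *Kif5a* (1.22-fold lower), *Myo1a* (1.40-fold lower) and *Tespa1* (1.24-fold lower). Apart from *Kif5a*, each of the other 4 calls was lost without some of the Nav1.7 arrays. With *Timeless* counted, whose call follows from its choice, 6 genes passed, and without littermate 3 the count was 2. The part of position in the *Timeless* difference was not tested. *Blnk* and *Crtac1* start 1.35 Mb apart on chromosome 19, with other genes between them. Of the 194 other genes within 10 Mb of *Blnk*, with *Crtac1* left out, 14 passed (7.22%). Within 10 Mb of the others, with the 6 genes left out, the shares differed. They were 16 of 116 for *Nox4* (13.8%), 8 of 68 for *Sdc1* (11.8%) and 14 of 189 for *Crtac1* (7.41%). For *Timeless* 6 of 127 passed (4.72%) and for *Rnase4* 8 of 207 (3.86%). Within 2 Mb it was 8 of 50 for *Blnk* (16%) and 7 of 55 for *Crtac1* (12.7%). Each of these counts holds the other gene, whose call follows from its choice. It was 3 of 43 for *Rnase4*, 3 of 91 for *Timeless*, 0 of 6 for *Nox4* and 0 of 13 for *Sdc1*. The causes were not tested. *Pdlim1*, named after its values were seen, starts 0.71 Mb from *Blnk* and was 1.99-fold lower.

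**Figure D5:**
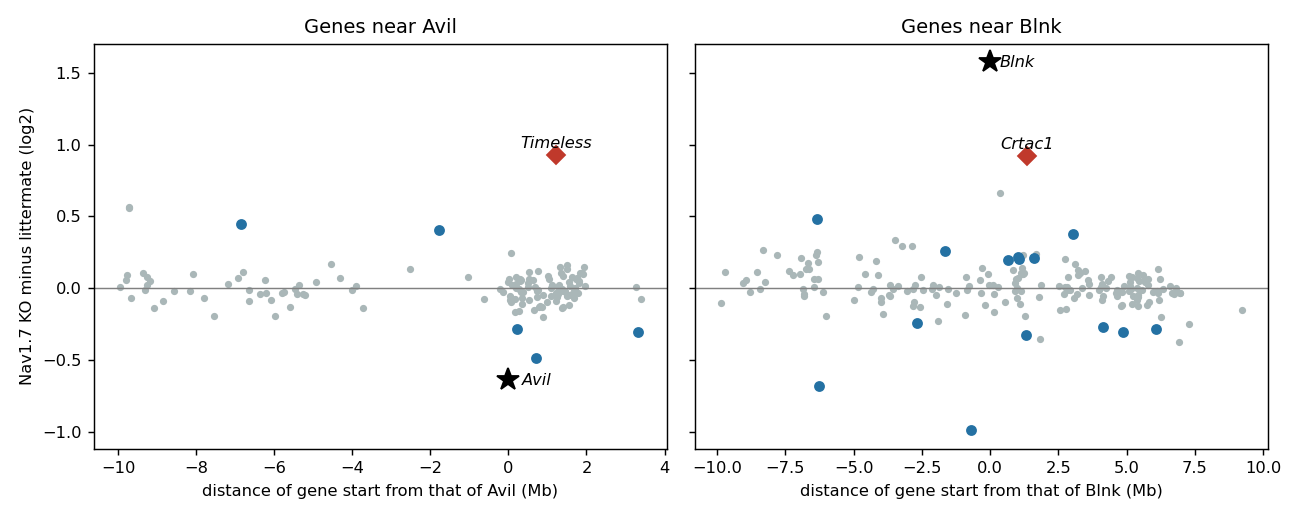
Nav1.7 KO minus littermate (log2) against distance of gene starts in Mb (GRCm38.p6 annotation), around *Avil* and *Blnk*; stars mark the anchor, diamonds the genes of the 6, blue points genes passing an adjusted p of 0.05. *Timeless* lies above the other genes near *Avil*, and *Crtac1* above the other genes near *Blnk*, though below *Blnk* itself.

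Over the 18 arrays the 6 genes correlated with each other at 0.58 to 0.91 (15 pairs, median 0.77). These values include the Nav1.7 arrays that chose the genes. Over the 12 arrays of the other lines they were -0.25 to 0.87 (median 0.28), and after group means were removed over all 18 arrays -0.56 to 0.38 (median 0.08). The closest genes over the 18 arrays, a ranking that favours any gene raised in Nav1.7 KO, were *Anxa4* to *Blnk* (0.92), *Kcnv1* to *Nox4* (0.89), *Unc5d* to *Crtac1* (0.93), *Traf3ip3* to *Sdc1* (0.92), *Zdhhc12* to *Rnase4* (0.86) and *Tac1*, the substance P precursor, to *Timeless* (0.94). Over the 12 arrays of the other lines the same pairs, in that order, stood at 0.79, 0.66, 0.74, 0.74, 0.76 and 0.89. After group means were removed they stood at 0.76, 0.56, 0.70, 0.83, 0.79 and 0.36. *Tac1* was also among the 3 closest to *Nox4*, *Crtac1* and *Sdc1*, at 0.29, 0.22 and 0.17 after group means were removed. Since the arrays share groups, this is a description with no p.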

How the data were processed

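Whole DRG RNA from 18 samples (6 groups of 3) was labelled and hybridised to 1-colour Affymetrix arrays. The authors made log2 intensities, 1 per probe set and array, in Affymetrix Expression Console before these were deposited, and the summary method, normalization and version are not given in the sources used here. The log2 scale was read from the values. Without detection calls, fold changes of dim probe sets may be understated. The number of arrays limits the precision.

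Groups came from titles and genotype labels, since every source name says littermate control, KO samples included. The 64 control probe sets were left out, and each of 18193 genes was represented by its brightest probe set among those named for it alone in the platform annotation (932 probe sets have several genes and 9160 are not listed). limma 3.58.1 under R 4.3.3 (lmFit, eBayes; 6 group means, 12 residual and 3.44 prior degrees of freedom) was used with Benjamini-Hochberg adjustment over all genes at 0.05, and it was tested on simulated data. RefSeq tables of GRCm38.p6 gave promoters and neighbours. Alternatives changed the normalization, filter, probe set rule, prior, weights, block, *Xist* term and single arrays.

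Named genes are the 6 with their probe sets, up to 3 passing genes of each partner and marker list, the 3 genes most alike to each of the 6, *Avil* with up to 5 passing neighbours, and genes ranked next to the 6. The 6 genes and all lists were chosen with earlier results of these data known.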

Additional observations from a re-analysis of the deposited data

Results flagged for a closer look

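Some genes that passed in the Nav1.7 line had KO effects that differed between lines by the interaction test (limma, adjusted p under 0.05). These genes were picked for passing in the Nav1.7 contrast, which is part of each difference. That choice favours a difference, so the values and p-values below are a description only. Of the partners of the 6 genes, the Nav1.7 effect minus the Nav1.8 effect was -0.97 for *Vav3*, -0.30 for *Sdcbp*, -0.54 for *Bhlhe41* and -0.28 for *Clock* (log2; adjusted p = 4.28e-05, 0.0142, 0.0371 and 0.0483). The Nav1.7 effect minus the Nav1.9 effect was -0.87 for *Vav3* and 0.83 for *Ncf4* (adjusted p = 0.000112 and 0.0449).

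Of the markers and the genes near *Avil*, *Avil* itself differed by -0.63 from Nav1.8 and -0.58 from Nav1.9 (adjusted p = 1.87e-05 and 3.07e-05), and *Kif5a* by -0.28 and -0.34 (adjusted p = 0.0146 and 0.00251). *Adgre1* differed from Nav1.9 by 0.59 and *Slc16a7* by 0.55 (adjusted p = 0.0168 and 0.0282). The 6 genes themselves were not tested in this way against Nav1.7, because the Nav1.7 contrast chose them.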

How the results depend on the processing

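No alternative called any of the 6 genes in Nav1.8 or Nav1.9 KO, and leaving out arrays gave 0 to 0. The median Nav1.7 difference of the 6 genes, 0.92, was 0.66 with the mean of all probe sets and 0.88 to 0.96 without single arrays; with dim probe sets left out *Nox4* was not measured, so no median was taken. The 2 calls between littermates became 0 with each line fitted alone or with the mean of all probe sets, 1 with quantile normalization, and 0 to 2 without single arrays. The 10 partner calls ranged from 5 to 8 without single arrays. The 3 marker calls were 5 with dim probe sets left out or with the mean of all probe sets, 6 with the trend and robust prior, 7 with the *Xist* term, and 1 to 5 without single arrays. The 6 calls near *Avil* were 11 in the 20 Mb window and 2 to 5 without single arrays. They include *Timeless*, whose call follows from its choice.

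Replicate numbers were not taken to pair the samples, and no label says that they do. The correlations of same-numbered deviations were 0.015, 0.25 and 0.27 in Nav1.7, 0.051, -0.11 and 0.26 in Nav1.8 and 0.035, 0.062 and -0.19 in Nav1.9. Without those of differently numbered samples beside them, these values cannot decide whether samples were paired. With the replicate block, 9 partner genes, 6 markers and 2 genes near *Avil* passed, and the littermate comparison could not be fitted. *Ang*, *Ncf4*, *Lgi1*, *Adgre1*, *Irak3*, *Slc16a7*, *Myo1a* and *Tespa1* did not pass with it. *Ang* also failed with each line fitted alone, the mean of all probe sets, array weights and the *Xist* term. Some differences that did not pass turned sign. *Blnk* in Nav1.8 was 0.21 with the *Xist* term and -0.20 to 0.017 without single arrays, and between littermates -0.058 to 0.15. *Nox4* was -0.14 to 0.059 in Nav1.8 without single arrays, and in Nav1.9 0.044 with array weights and -0.17 to 0.15 without single arrays. *Crtac1* in Nav1.9 was -0.12 to 0.0067 without single arrays. The causes were not tested.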
